A study of Homo sapiens with 24 samples.

Results

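The transcripts described here are those of 10 genes of the BCL2 family, BMF, BBC3, BCL2L11, PMAIP1, BIK, BAX, BAK1, BCL2, BCL2L1 and MCL1, out of 58721 genes in the deposited tables. They were found by matching each gene ID to its symbol in GENCODE 29, and all 10 matched. The set was chosen by measured log2 changes of siZFX against siControl, where BMF had the largest rise among the protein-coding genes of at least 5 CPM whose libraries did not overlap. CPM (counts per 10 to the power of 6 gene reads) is the share of a library's gene reads that fell on a gene, here over totals scaled by TMM factors. The change of BMF with siZFX is therefore a description of how it was chosen, and carries no test.

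The study counted RNA-seq reads in 24 libraries, 3 biological replicates in each of 8 groups. LN-229, a human glioblastoma line of wild type genotype, received a control siRNA (siControl), siZFX, siZNF593, or siZFX and siZNF593 together (the double knockdown). A second set of control libraries, titled siControl_2, carries the same treatment label as siControl, and the double knockdown is compared with it. ZFX and its close relative ZNF711 are zinc finger transcription factors that bind promoters. 293T, a human embryonic kidney line with both ZFX and ZNF711 knocked out (DKO), received the empty vector pCMV6, wild type FLAG-tagged ZFX (wtZFX) or a further FLAG-tagged ZFX construct titled ZFX12_13, whose change the labels do not describe. All 3 DKO groups share the knockout and differ in the plasmid, and all 15 LN-229 libraries had a transfected siRNA. The labels do not say how many knockout clones were used.

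BCL2 family proteins decide whether the outer mitochondrial membrane is opened during apoptosis. The effectors BAX and BAK1 form the pores, the guardians BCL2, BCL2L1 and MCL1 hold them back, and the BH3-only proteins BMF, BBC3, BCL2L11, PMAIP1 and BIK bind guardians or effectors and tip the balance towards death. BMF is known as a sensor of lost attachment and of cytoskeletal stress, held at the actin and myosin V system through a dynein light chain.

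Libraries of LN-229 held 16774179 to 30159260 gene reads, and DKO libraries 16223239 to 24272308. ZFX stood at 49.6 CPM over plain totals in siControl and 52.0 in siControl_2, and at 15.7 with siZFX and 27.5 in the double knockdown, so it was less reduced in the double knockdown. ZNF593 is listed at 0 in the unstranded counts, and over both strands it stood at 34.0 CPM in siControl, 2.34 with siZNF593 and 3.21 in the double knockdown. In DKO cells ZFX stood at 227 CPM with pCMV6, 15430 with wtZFX and 18640 with ZFX12_13, and ZNF711 at 310.2 CPM with pCMV6, so gene counts do not show the knockouts. Of the 9 glial markers, SOX10 stood at 1275 CPM in siControl and 0.836 with pCMV6, while GFAP was low in both, at 2.62 and 2.42 CPM. Of the 7 markers of 293T cells, NEFM stood at 257.5 CPM with pCMV6 and was at 0 in siControl. Over plain totals the 7 summed to 468 to 500.2 CPM with pCMV6 and 71.0 to 78.2 in siControl, so LN-229 held others of them. Over plain totals, the 9 glial markers summed to 5636 to 5771 CPM in siControl, 4568 to 4638 with siZFX, 3499 to 3586 with siZNF593, 5665 to 5811 in siControl_2 and 3976 to 4083 in the double knockdown, so their sum moved with every knockdown. Their part in the results below was not tested. The 6 markers of immune, endothelial and fibroblast cells summed to 20.2 to 23.4 CPM in siControl and 51.1 to 51.9 in siControl_2, so the control sets differed. They summed to 29.1 to 33.3 CPM with siZFX, 25.9 to 30.2 with siZNF593 and 31.7 to 39.7 in the double knockdown. CD68 was at 0 in 4 of the 5 groups. The fibroblast gene DCN was called higher in siControl_2 than in siControl, and the other tested markers of this list were not. The part of these markers was not tested either. Replicate 3 of the double knockdown stood apart from its partners, with a Pearson r of 0.970 over genes against 0.986 between replicates 1 and 2. Results of the double knockdown against siControl_2 that rest on it are given with and without it.

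The region before the start of transcription is shown for BMF, the member with the largest rise, and BAK1, the member with the largest fall. Both run 5′ to 3′ on the gene's strand, cover the 250 bases before the first RefSeq start in GRCh38.p14, and have AGGCC, the core of the ZFX motif, in capitals where it or its complement GGCCT occurs.
BMF, chr15:40108880-40109129, minus strand: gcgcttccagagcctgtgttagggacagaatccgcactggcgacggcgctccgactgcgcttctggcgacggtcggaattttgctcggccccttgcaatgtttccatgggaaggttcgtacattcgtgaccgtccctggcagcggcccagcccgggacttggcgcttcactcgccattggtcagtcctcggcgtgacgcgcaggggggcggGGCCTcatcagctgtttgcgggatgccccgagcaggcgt
BAK1, chr6:33580277-33580526, minus strand: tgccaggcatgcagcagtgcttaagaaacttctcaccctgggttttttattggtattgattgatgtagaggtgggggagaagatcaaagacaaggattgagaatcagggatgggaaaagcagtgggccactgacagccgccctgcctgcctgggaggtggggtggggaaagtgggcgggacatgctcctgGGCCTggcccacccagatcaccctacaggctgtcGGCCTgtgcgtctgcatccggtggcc
The window before BMF held 1 match, whose first base lies at -39 from the start. The window before BAK1 held 2 matches, at -60 and -26. RefSeq windows were found for 8 of the 10 genes, with 10 starts in all; MCL1 and BIK were not matched. AGGCC was searched on both strands, and 3 of the 8 genes held it, the third being BCL2L1 at its second start. Of all 35116 RefSeq windows of this length, 50.45% held AGGCC, so a match is common. The E-box CACGTG, found in 6.345% of windows, occurred 4 times before BAX and 1 time before BBC3, and GTAAACA, a FOXO site found in 2.979% of windows, 1 time before BCL2L11. TGATGNAA, an ATF4 and C/EBP site found in 3.144% of windows, was in none of the 10 windows.

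BMF (ENSG00000104081.13, GRCh38 chromosome 15, 40087890 to 40108892, minus strand) was lowest in siControl, at 3.98, 4.57 and 4.01 CPM, which rest on 109, 133 and 93 reads. With siZFX it stood at 21.1, 22.4 and 19.95 CPM. The siZNF593 libraries held 10.4, 8.17 and 9.86 CPM. All 3 siZFX libraries were above every other LN-229 library, and all 3 siControl libraries below. siControl_2 held 7.05, 6.73 and 8.49 CPM, so the second set of control libraries was itself above the first without overlap. The double knockdown held 12.3, 11.1 and 13.3 CPM, above siControl_2 and below siZFX in every library. By group mean the order was siZFX, double knockdown, siZNF593, siControl_2 and siControl, and the libraries of siZNF593 and siControl_2 were the only neighbours that overlapped. In bulk RNA, fewer cells of a type and less RNA per cell cannot be told apart.

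On the log2 scale BMF was 2.33 (SE 0.14) higher with siZFX than in siControl, a 5.04-fold difference from 4.19 ± 0.334 to 21.2 ± 1.23 CPM (SD, n = 3). It ranked first of 2096 protein-coding genes called higher under the conditions above, just ahead of HMOX1 at 2.31 and PGM2L1 at 2.29, and 26th of all 17684 genes tested when those conditions were dropped. BMF was also 1.17 (SE 0.15) higher with siZNF593 than in siControl, and 0.82 (SE 0.15) higher in siControl_2 than in siControl. These 2 comparisons share the siControl libraries used to choose the gene and are given without a test.

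The double knockdown against siControl_2 shares no library with that choice, and there BMF went from 7.42 ± 0.938 to 12.2 ± 1.10 CPM (SD, n = 3), a 1.65-fold rise of 0.72 on the log2 scale (SE 0.14), with an adjusted p of 0.00024 by edgeR. Without replicate 3 of the double knockdown the change was 0.66 (adjusted p = 0.000318). The spread in these fits was estimated over the LN-229 libraries together, among them those used to choose BMF. With only the 2 groups in the fit the change was 0.75 (adjusted p = 0.00689). BMF ranked 360th of 2229 protein-coding genes called higher under the same conditions. The size depended on the control set. Against siControl_2, BMF was 1.51 higher with siZFX and 0.35 higher with siZNF593, and the second of these missed the threshold (adjusted p = 0.0667), while the double knockdown was 1.55 above siControl. The mean of BMF was above both control sets with each knockdown, and the control sets themselves differed 1.77-fold.

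In DKO cells BMF stood at 14.2, 10.9 and 10.8 CPM with pCMV6, at 10.45, 11.3 and 9.74 with wtZFX and at 10.9, 11.4 and 10.7 with ZFX12_13. The 3 groups overlapped, and replicate 1 of pCMV6 was the highest library. The log2 change with wtZFX was -0.19 (SE 0.11, 95% interval -0.41 to 0.02, adjusted p = 0.166) and with ZFX12_13 was -0.12 (interval -0.35 to 0.10, adjusted p = 0.432). Between the constructs it was 0.07 (interval -0.15 to 0.30, adjusted p = 0.731). BMF was not called in any DKO comparison, and the 3 intervals together run from -0.41 to 0.30. Without pCMV6 replicate 1 the value for ZFX12_13 was 0.02. Of the exon bases of BMF, 8.46% are shared with the antisense gene BMF-AS1, all 461 of whose bases lie in BMF exons, so reads there are counted for neither gene. The unstranded count was 82.4% of both strands summed, and from 71.5% to 91.9% by library, so the loss was uneven. Summing the strands gave BMF-AS1 1210 reads in place of 0, so the strand sum of BMF is itself not a full count. The loss is thus larger than these shares show. The fold given above for siZFX rests on unstranded counts. With both strands summed the change in the double knockdown was 0.63.

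**Figure D1:**
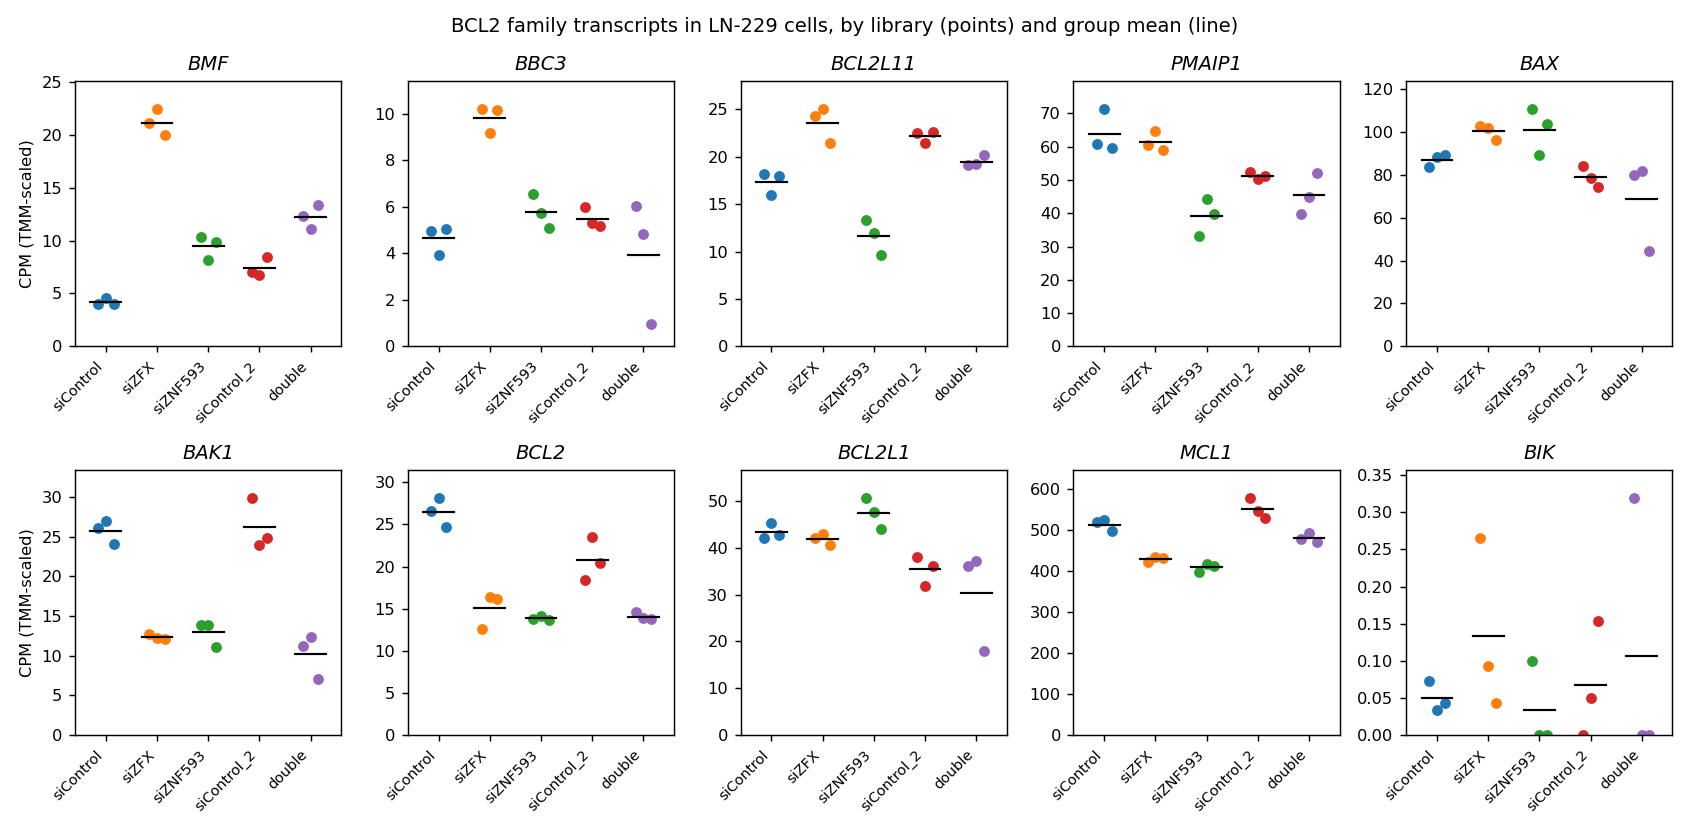
Level of the 10 transcripts in LN-229 (vertical axis, CPM over TMM-scaled totals, from 0; a panel per gene), with a point per library and a line at each group mean of 3. BMF is above 19 CPM in every siZFX library, BAK1 and BCL2 are lower in the knockdowns than in both control sets, and replicate 3 of the double knockdown is the low point for BBC3, BAX and BCL2L1.

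Of the 9 members tested in LN-229, 3 were called higher and 3 lower with siZFX, against 13.8% of all tested genes called higher and 17.1% called lower; this contrast chose BMF, so nothing is read from the count. With siZNF593, 5 of the 8 members other than BMF fell and 0 rose, where 14.6% of all genes were called lower and 12.2% higher. In the double knockdown 1 member of 9 rose and 3 fell, against 17.6% of all genes called higher and 20.6% called lower. Between the control sets 1 of the 8 members other than BMF, BCL2L11, was called higher and 0 lower in siControl_2, against 5.43% and 4.88% of all genes, at an adjusted p of 0.0478 that leaving out any 1 library lifted above 0.05. The median log2 change over the members was -0.33 with siZNF593 and -0.20 in the double knockdown, where all genes had medians of 0.02 and 0.01. All 3 members that fell in the double knockdown also fell with siZNF593, in comparisons with separate controls: BAK1, BCL2 and MCL1.

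The first of the other BH3-only genes, BBC3 (ENSG00000105327.17, chromosome 19, 47220822 to 47232766, minus strand), encodes PUMA, a p53 target that binds all guardians. It stood at 4.96, 3.92 and 5.04 CPM in siControl and 10.2, 9.17 and 10.15 with siZFX, with a log2 difference of 1.08 (SE 0.38). Its siZNF593 libraries held 6.56, 5.74 and 5.08 CPM and its siControl_2 libraries 5.99, 5.32 and 5.16. The siZFX libraries stood above all the others, and the siZNF593 and siControl_2 libraries overlapped. In the double knockdown it stood at 6.02, 4.81 and 0.980 CPM, so that 1 library lay far below the rest. The log2 change there was -0.48 (SE 0.39, interval -1.25 to 0.29, adjusted p = 0.369), and -0.02 (adjusted p = 0.958) without replicate 3. BBC3 thus showed no call in the double knockdown while it was 1.08 higher with siZFX than in siControl and 0.84 higher than in siControl_2. The difference between siZFX and the double knockdown was not tested.

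BCL2L11 (ENSG00000153094.22, chromosome 2, 111119378 to 111168447, plus strand) encodes BIM, which binds all guardians and can act on BAX and BAK1 directly. It stood at 18.2, 16 and 17.9 CPM in siControl, 24.3, 25.0 and 21.4 with siZFX and 13.3, 12 and 9.69 with siZNF593. The siZFX libraries lay above siControl and the siZNF593 libraries below it. BCL2L11 fell by 0.57 on the log2 scale with siZNF593 (SE 0.12, adjusted p = 0.000816, n = 3), and by 0.92 against siControl_2 (adjusted p = 1.95e-06). siControl_2 held 22.6, 21.5 and 22.6 CPM, overlapping siZFX, and the double knockdown 19.1, 19.2 and 20.2. The change in the double knockdown was -0.19 (SE 0.11, adjusted p = 0.204), and against siControl it was 0.17, so its sign follows the control set. With siZFX the difference of 0.44 against siControl was 0.09 against siControl_2. Its unstranded count was 80.4% of both strands summed, since 10.9% of its exon bases are shared with MIR4435-2HG.

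PMAIP1 (ENSG00000141682.11, chromosome 18, 59899948 to 59904306, plus strand) encodes NOXA, which binds MCL1. It stood at 60.95, 71.2 and 59.6 CPM in siControl, 60.4, 64.6 and 59.0 with siZFX and 33.2, 44.4 and 39.9 with siZNF593. It fell by 0.71 on the log2 scale with siZNF593 (SE 0.11, adjusted p = 2.11e-05), and by 0.39 against siControl_2 (adjusted p = 0.00739), and every siZNF593 library was below both control sets. siControl_2 held 52.4, 50.3 and 51.1 CPM and the double knockdown 39.8, 44.8 and 51.95, with 1 library inside the control range. The change in the double knockdown was -0.17 (SE 0.11, adjusted p = 0.216). Without replicate 3 it was -0.27 (adjusted p = 0.016), and against siControl it was -0.49 (adjusted p = 0.00062). With siZFX the log2 difference was -0.06 against siControl and 0.26 against siControl_2.

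BIK (ENSG00000100290.2, chromosome 22, 43110748 to 43129712, plus strand), a BH3-only protein of the endoplasmic reticulum, had 2, 1 and 1 reads in siControl, 6, 2 and 1 with siZFX and 2, 0 and 0 with siZNF593. The other LN-229 libraries held 0 to 8 reads, so it was too low to test and no difference was detectable at this depth.

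Of the effectors, BAK1 (ENSG00000030110.12, chromosome 6, 33572547 to 33580293, minus strand) had the largest fall among the members. It stood at 26.1, 27.1 and 24.1 CPM in siControl and 29.9, 23.9 and 24.8 in siControl_2, and these 2 sets overlapped. siZFX held 12.75, 12.3 and 12.1 CPM, siZNF593 13.9, 13.9 and 11.1, and the double knockdown 11.2, 12.3 and 7.10. Every knockdown library was below every control library, and the 3 knockdown groups overlapped one another. The fall with siZNF593 was 0.99 on the log2 scale (log2 change -0.99, SE 0.15, adjusted p = 2.89e-05, n = 3). In the double knockdown the mean went from 26.2 to 10.2 CPM, a log2 change of -1.36 (SE 0.15) with adjusted p = 2.9e-07, and without replicate 3 the change was -1.15 (adjusted p = 5.69e-11). With siZFX the log2 difference was -1.06. BAK1 was the member least moved by the choice of control set: against the other controls these 3 values were -1.02, -1.33 and -1.08. With only the 2 groups in the fit the BAK1 change in the double knockdown was -1.34 (adjusted p = 0.000617). Its exon bases are shared with GGNBP1 at 4.11%.

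BAX (ENSG00000087088.19, chromosome 19, 48954815 to 48961798, plus strand), the partner effector that moves from the cytosol to mitochondria, stood at 83.7, 88.3 and 89.3 CPM in siControl and 103, 101.7 and 96.4 with siZFX. siZNF593 held 110.5, 89.2 and 103.6 CPM, siControl_2 84.3, 78.5 and 74.2, and the double knockdown 79.97, 81.9 and 44.4. The siZNF593 range reached into that of siControl, and in the double knockdown 2 libraries lay in the control range and 1 far below. With all groups in the fit it was not called in LN-229: the log2 change was 0.22 (interval -0.12 to 0.55, adjusted p = 0.398) with siZNF593 and -0.20 (interval -0.54 to 0.14, adjusted p = 0.394) in the double knockdown, which was 0.04 without replicate 3. With only the 2 groups in the fit, the siZNF593 change of 0.22 passed the test (adjusted p = 0.0171).

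Of the guardians, BCL2 (ENSG00000171791.12, chromosome 18, 63123346 to 63320128, minus strand) stood at 26.6, 28.1 and 24.75 CPM in siControl, 12.6, 16.4 and 16.1 with siZFX and 13.8, 14.2 and 13.6 with siZNF593. siControl_2 held 18.4, 23.5 and 20.45 CPM and the double knockdown 14.6, 13.85 and 13.7. Every knockdown library was below every library of both control sets, which did not overlap each other. BCL2 fell with siZNF593 (-0.94, SE 0.12, adjusted p = 2.44e-06) and when both were knocked down (-0.57, SE 0.12, adjusted p = 0.000592). Against the other control set these were -0.59 and -0.92. With only the 2 groups in the fit the BCL2 change in the double knockdown was -0.55 (adjusted p = 0.0128). With siZFX the log2 difference was -0.82 against siControl and -0.47 against siControl_2.

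MCL1 (ENSG00000143384.12, chromosome 1, 150574551 to 150579738, minus strand), a guardian of short half-life, was the most abundant member, at 519, 524.8 and 497 CPM in siControl, 423, 435 and 433 with siZFX and 398, 417.5 and 413 with siZNF593. siControl_2 held 578, 548 and 530.1 CPM and the double knockdown 478, 494 and 472. The knockdown libraries were below the controls in every group. It fell with siZNF593 (-0.33 on the log2 scale, SE 0.06, adjusted p = 0.000147) and in the double knockdown (-0.20, SE 0.06, adjusted p = 0.00872). The second call was lost without siControl_2 replicate 1 (-0.15, adjusted p = 0.073), with upper-quartile scaling (-0.13), with only the 2 groups in the fit (-0.18, adjusted p = 0.111) and with siControl as the control (-0.09, adjusted p = 0.203).

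BCL2L1 (ENSG00000171552.12, chromosome 20, 31664452 to 31723989, minus strand) encodes BCL-XL. It stood at 42.2, 45.3 and 42.9 CPM in siControl, 42.1, 43.05 and 40.7 with siZFX and 50.65, 47.7 and 44.0 with siZNF593. siControl_2 held 38.1, 31.9 and 36.15 CPM and the double knockdown 36.2, 37.2 and 17.9. The siZFX and siZNF593 libraries overlapped those of siControl, the double knockdown overlapped siControl_2, and 1 of its libraries lay far below the rest. Neither test called it: the log2 change was 0.13 (interval -0.25 to 0.50, adjusted p = 0.683) with siZNF593 and -0.22 (interval -0.60 to 0.16, adjusted p = 0.412) in the double knockdown, which was 0.06 without replicate 3. Against siControl the double knockdown gave -0.51 (adjusted p = 0.0452), with replicate 3, at 17.9 CPM, included and no value given without it. Its values are uncertain, because 43.0% of its exon bases are shared with the antisense RNA gene ABALON and its unstranded count was only 55.1% of both strands summed. That sum is not a full count either, since summing the strands also raised the reads given to ABALON from 338 to 13587.

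**Figure D2:**
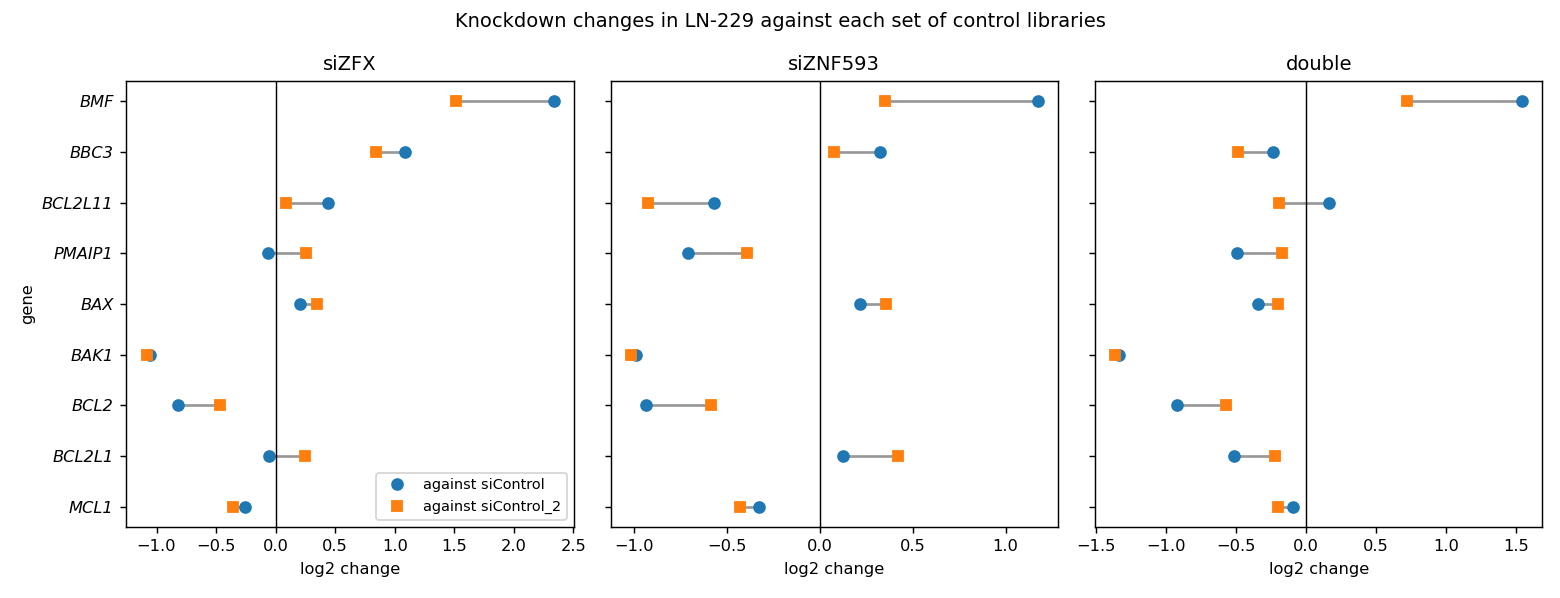
log2 change of 9 members (rows) in each knockdown of LN-229 (a panel each, horizontal axis log2 change), against siControl (circles) and against siControl_2 (squares). The gap is widest for BMF, at 2.33 and 1.51 with siZFX, and small for BAK1, at -1.06 and -1.08.

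In DKO cells all 10 members could be tested. With wtZFX 3 rose and 2 fell against pCMV6, where 23.2% of all genes were called higher and 19.2% lower. With ZFX12_13 2 rose and 0 fell, against 20.9% and 15.7% of all genes. Between the constructs, 5 members were higher and 1 lower with ZFX12_13 than with wtZFX, against 9.73% and 10.6% of all genes. Median log2 changes over the members were -0.07, 0.09 and 0.17, and over all genes -0.02, -0.01 and 0.01. The calls were mostly of small changes, and leaving out any 1 library of wtZFX or pCMV6 gave 2 or 3 calls with wtZFX in place of 5.

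BIK had the largest changes in DKO cells. It stood at 1.13, 1.501 and 0.908 CPM with pCMV6 (25, 32 and 18 reads), at 2.11, 2.09 and 1.62 with wtZFX and at 3.72, 3.69 and 3.64 with ZFX12_13. The 3 groups did not overlap, and every ZFX12_13 library was above every wtZFX library. BIK rose 3.10-fold with ZFX12_13 (log2 change 1.63, SE 0.22, adjusted p = 1.87e-06, n = 3) and was higher with ZFX12_13 than with wtZFX (log2 change 0.93, SE 0.20, adjusted p = 0.00132). The rise with wtZFX (log2 change 0.70, SE 0.23, adjusted p = 0.0181) was lost without wtZFX replicate 1 or 2 and without pCMV6 replicate 1 or 3, and over the 6 fits that left out 1 library its value ran from 0.55 to 0.91.

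BBC3 stood at 33.3, 30.2 and 36.3 CPM with pCMV6, 23.4, 29.96 and 26.3 with wtZFX and 39.2, 35.2 and 36.8 with ZFX12_13. The wtZFX libraries were below both other groups, which overlapped. BBC3 fell with wtZFX (-0.32 on the log2 scale, SE 0.08, adjusted p = 0.00312) and was higher with ZFX12_13 than with wtZFX (0.48, SE 0.09, adjusted p = 0.000165). ZFX12_13 against pCMV6 gave 0.16 (adjusted p = 0.148). BCL2L11 ran the other way, at 41.6, 38.6 and 40.5 CPM with pCMV6, 44.8, 46.3 and 49.1 with wtZFX and 38.5, 39.7 and 37.1 with ZFX12_13. It rose with wtZFX (0.22, SE 0.06, adjusted p = 0.00659), a call lost without wtZFX replicate 3 or pCMV6 replicate 2, and was lower with ZFX12_13 than with wtZFX (-0.28, SE 0.06, adjusted p = 0.00198). PMAIP1 held between 90.1 and 107.3 CPM in all 9 libraries and was not called, with log2 changes of 0.02, 0.02 and 0.00 and an interval of -0.09 to 0.14 for each construct against pCMV6.

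BAK1 stood at 44.6, 43.96 and 44.3 CPM with pCMV6, 51.3, 50.8 and 50.45 with wtZFX and 49.8, 43.2 and 41.75 with ZFX12_13. It rose 1.15-fold with wtZFX (0.20 on the log2 scale, SE 0.06, adjusted p = 0.0145), and all 3 wtZFX libraries were above all other DKO libraries; without pCMV6 replicate 2 the adjusted p was 0.0541. ZFX12_13 against pCMV6 gave 0.02 (adjusted p = 0.832), and ZFX12_13 against wtZFX -0.18 (adjusted p = 0.057). BAX stood at 98.8, 98.1 and 105.8 CPM with pCMV6, 88.8, 92.7 and 97.4 with wtZFX and 121.3, 100.1 and 115.1 with ZFX12_13. BAX was higher with ZFX12_13 than with wtZFX (0.27, SE 0.06, adjusted p = 0.00252). With all groups in the fit, neither wtZFX nor ZFX12_13 passed the test against pCMV6 (adjusted p = 0.136 and 0.0563). With only the 2 groups in the fit, the BAX change of -0.11 with wtZFX passed it (adjusted p = 0.0186).

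Among the guardians in DKO cells, BCL2 held 11.7, 11.6 and 11.2 CPM with pCMV6, 10.45, 10.6 and 10.7 with wtZFX and 13.0, 13.8 and 13.0 with ZFX12_13. The 3 groups did not overlap, and BCL2 was higher with ZFX12_13 than with wtZFX (log2 change 0.33, SE 0.09, adjusted p = 0.0137), a call lost without ZFX12_13 replicate 2 (0.30) and with no filter on low counts (0.31). BCL2L1 stood at 16.6, 12.1 and 14.4 CPM with pCMV6, 14.4, 13.3 and 14.9 with wtZFX and 18.8, 18.3 and 16.8 with ZFX12_13. It was higher with ZFX12_13 than with pCMV6 (0.32, SE 0.10, adjusted p = 0.0152) and than with wtZFX (0.34, SE 0.10, adjusted p = 0.0192). The first of these calls was lost without pCMV6 replicate 2 (0.21) and without ZFX12_13 replicate 2 (0.31), and the second without ZFX12_13 replicate 2, wtZFX replicate 1 or wtZFX replicate 2. MCL1 held 303, 288 and 294 CPM with pCMV6, 272, 264 and 277 with wtZFX and 294, 272 and 262 with ZFX12_13. Its fall with wtZFX (-0.12, SE 0.05, adjusted p = 0.049) was lost in all 6 fits that left out 1 library.

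**Figure D3:**
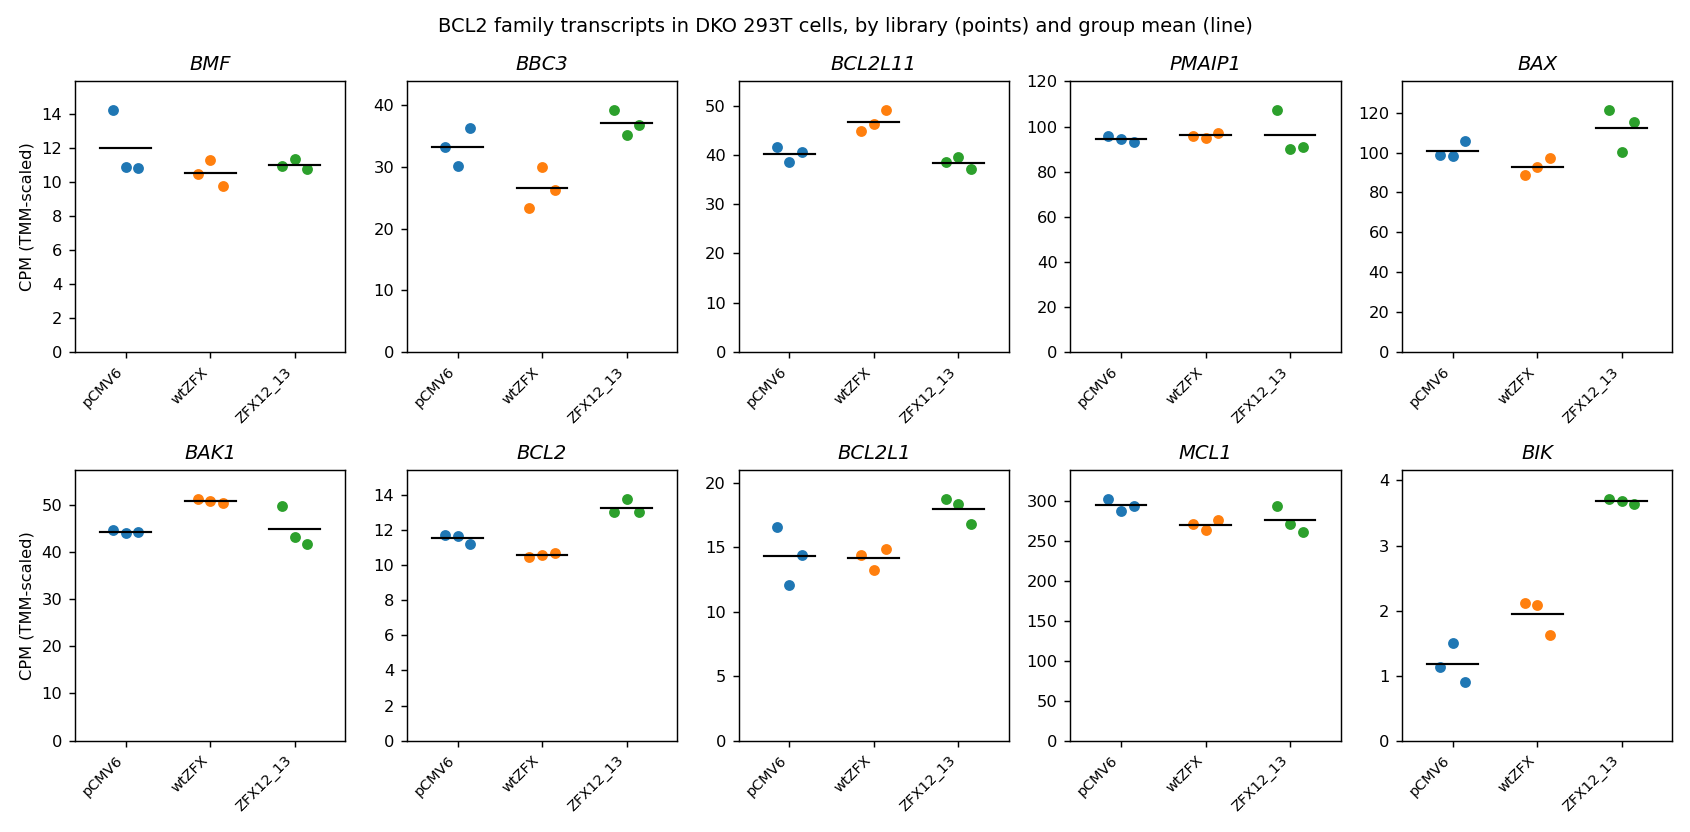
Level of the 10 transcripts in DKO 293T cells (vertical axis, CPM over TMM-scaled totals, from 0; a panel per gene), with a point per library and a line at each group mean of 3. The BMF libraries of all 3 groups overlap, and BIK is separate in each group, at 3.64 to 3.72 CPM with ZFX12_13.

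**Figure D4:**
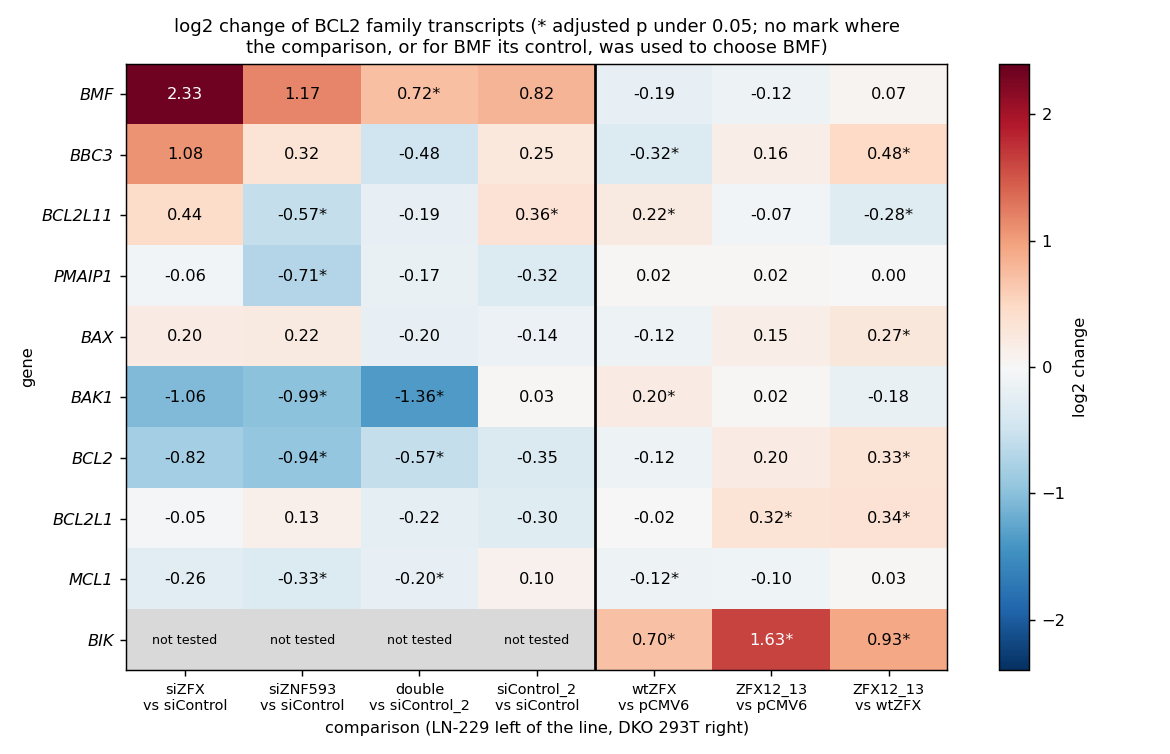
log2 change of each member (rows) in 7 comparisons (columns), printed in each cell and coloured from blue (lower) to red (higher). A star marks an adjusted p under 0.05 by edgeR; siZFX, and for BMF the comparisons with siControl, carry none because they were used to choose BMF.

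Levels can be set side by side between genes only per length of exon. In siControl MCL1 stood at 117.5 CPM per kb, BAX at 33.7 and PMAIP1 at 28.6, while BCL2 stood at 2.25, BBC3 at 1.46 and BMF at 0.769. BMF was thus the lowest of the 9 members tested in LN-229 on this scale. With pCMV6 in DKO cells the levels were 67.6 CPM per kb for MCL1, 42.3 for PMAIP1, 39.0 for BAX, 10.45 for BBC3, 2.20 for BMF, 1.24 for BIK and 0.979 for BCL2. Overlapping genes lower the values of BCL2L1, BCL2L11, BAK1 and BMF on this scale. The lines were fitted apart, and no test was made between them.

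**Figure D5:**
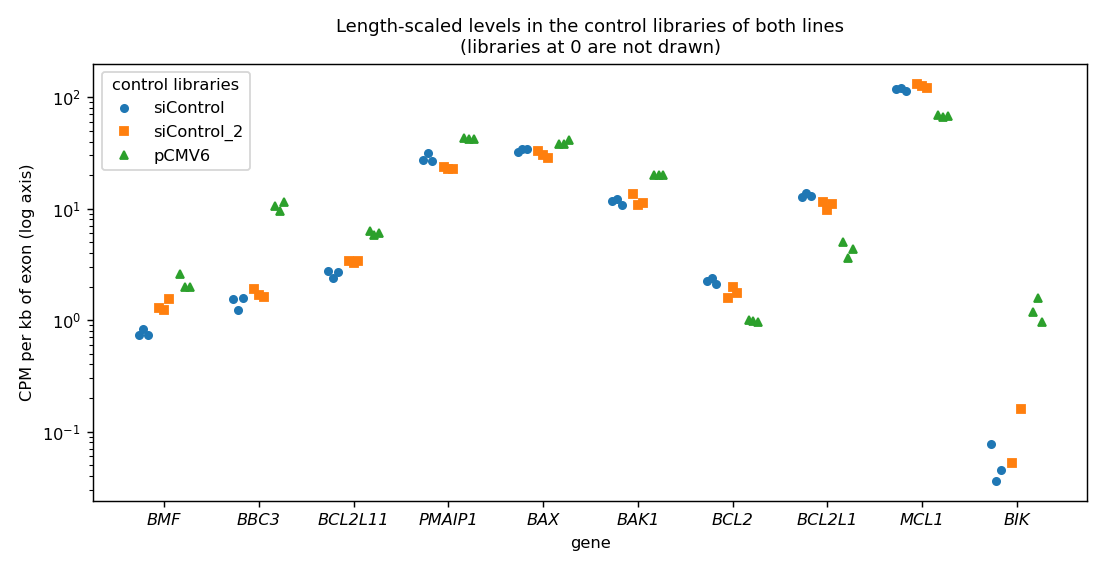
Level of each member in the control libraries (CPM per kb of exon, log axis), with a point per library for siControl, siControl_2 and pCMV6. MCL1 is highest in every group, BMF has the lowest mean besides BIK in siControl, and BCL2 is lowest with pCMV6.

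The protein-coding genes whose pattern was most like that of BMF were found by Pearson correlation of log2 CPM over the 15 LN-229 libraries, among 10628 genes of at least 5 CPM. Among the first 5 were STAT3, a transcription factor of cytokine signalling (r = 0.949), CDS2 (0.941), ARRDC3 (0.941) and ARSD (0.929). These libraries share groups, so r includes differences between group means, and the genes were chosen for it. The changes of the first and the third were smaller than those of BMF: STAT3 was 0.62 higher on the log2 scale with siZFX, 0.23 with siZNF593 and 0.37 in the double knockdown, and ARRDC3 1.28, 0.43 and 0.26. In siControl_2 STAT3 was 0.10 and ARRDC3 0.50 higher than in siControl. The mean of ARRDC3 with siZNF593, 76.75 CPM, was below that of siControl_2, 80.59. Among the members, r with BMF over the same 15 libraries was -0.78 for BCL2, -0.75 for BAK1 and -0.59 for MCL1, and 0.31 for BCL2L11 and 0.29 for BBC3. It was 0.10 for BAX, -0.12 for PMAIP1 and -0.15 for BCL2L1. These libraries include the siZFX and siControl libraries used to choose BMF. Over the 9 DKO libraries r was 0.48 for MCL1, 0.32 for BBC3, 0.23 for BCL2L1 and 0.20 for BCL2. There it was -0.33 for BAK1, -0.24 for BIK, -0.23 for BCL2L11, -0.05 for PMAIP1 and -0.04 for BAX.

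The wider pathway was counted over 60 further genes in 6 lists. In the double knockdown 9 of the 57 tested rose (15.8%) and 18 fell (31.6%), against 17.6% of all genes called higher and 20.6% called lower. Without double replicate 3, 8 of 58 rose and 17 fell, where 3268 of all genes were called higher and 3719 lower. With siZNF593 7 rose (12.3%) and 10 fell (17.5%), where all genes gave 12.2% and 14.6%. With wtZFX in DKO cells 17 of 56 rose (30.4%) and 15 fell (26.8%), against 23.2% and 19.2% of all genes. The 15 that fell became 8 without wtZFX replicate 1 and 9 without pCMV6 replicate 3. Calls over all genes, in either direction, also dropped when 1 library was left out, from 8202 to between 6870 and 7292. With ZFX12_13 16 rose (28.6%) and 9 fell (16.1%), against 20.9% and 15.7%, and 10 were higher (17.9%) and 3 lower (5.36%) with ZFX12_13 than with wtZFX, against 9.73% and 10.6%. With siZFX 10 were called higher (17.5%) and 14 lower (24.6%), where all genes gave 13.8% and 17.1%, and between the control sets 4 (7.02%) and 3 (5.26%), where all genes gave 5.43% and 4.88%. The median log2 change of these genes was -0.05 in the double knockdown and 0.02 with wtZFX, where all genes had medians of 0.01 and -0.02. Nothing particular to the lists is read from these counts, and the counts of single lists that follow are read against the same shares of all genes.

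In the double knockdown 1 of 9 tested further BCL2 family genes rose and 4 fell. BAD, a BH3-only protein controlled by phosphorylation, fell from 7.21 ± 3.62 to 2.14 ± 0.678 CPM (log2 change -1.76, adjusted p = 0.000145), with counts made uncertain by an overlapping gene, and BCL2L14 rose to 1.01 CPM (2.004, adjusted p = 0.0115). The BCL2L14 call was lost without siControl_2 replicate 1 (1.61, adjusted p = 0.0721), siControl_2 replicate 3 (1.78, adjusted p = 0.0584) or double replicate 2 (1.75, adjusted p = 0.0549), and without double replicate 3 it was kept (adjusted p = 0.020). Of 11 apoptosome and caspase genes 1 rose and 2 fell, among them the mitochondrial nuclease ENDOG, which fell by 1.02 on the log2 scale (adjusted p = 0.0186) and by 0.60 without double replicate 3 (adjusted p = 0.00691). Of 7 IAP genes and antagonists, which block or free caspases, 1 rose and 4 fell, with BIRC3 at -1.15 (adjusted p = 0.000101) and BIRC5, survivin, going from 347 ± 13.5 to 207 ± 2.31 CPM (-0.75, adjusted p = 4.84e-09). The others called were XIAP and BIRC2, which fell, and BIRC6, which rose and was no longer called without double replicate 3 (0.18, adjusted p = 0.096).

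Of 9 death receptor genes 2 rose and 3 fell in the double knockdown: the receptor FAS fell (-0.71, adjusted p = 0.000279) and the initiator CASP8 rose from 38.2 ± 1.30 to 56.6 ± 2.55 CPM (0.57, adjusted p = 3.82e-06). Of 10 partners and turnover factors 1 rose and 3 fell, among them VDAC1, the channel of the outer membrane (-0.53, adjusted p = 4.72e-07), and DYNLL2, the dynein light chain that holds BMF (-0.39, adjusted p = 6.01e-05). Of 11 transcription regulators of BH3-only genes 3 rose and 2 fell, with NFKB1 at -0.68 (adjusted p = 1.49e-07) and TP73 at -0.41 (adjusted p = 0.0246). The TP73 call was lost without double replicate 3 (-0.28, adjusted p = 0.0833) and without siControl_2 replicate 1, 2 or 3 (adjusted p = 0.0755, 0.0501 and 0.0558). Without double replicate 3 BAD stood at -1.60, BIRC3 at -1.32, BIRC5 at -0.73, FAS at -0.78, CASP8 at 0.55, VDAC1 at -0.52, DYNLL2 at -0.38 and NFKB1 at -0.61 on the log2 scale, all called.

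With wtZFX in DKO cells 3 of 8 further BCL2 family genes rose and 2 fell, with BOK at 1.21 (adjusted p = 3.91e-05) and BAD at 0.60 (adjusted p = 0.00331). Of the apoptosome and caspase genes 4 rose and 3 fell, with CASP6 going from 12.6 ± 0.518 to 21.1 ± 1.53 CPM (0.75, adjusted p = 1.33e-07) and DFFB at 0.46 (adjusted p = 6.79e-05). Of the IAP list 0 rose and 2 fell, HTRA2 (-0.26, adjusted p = 0.00951) and XIAP (-0.17, adjusted p = 0.00823). Without wtZFX replicate 1 neither was called (HTRA2 -0.22, adjusted p = 0.0602, and XIAP -0.15, adjusted p = 0.0537), and without pCMV6 replicate 3 XIAP was not (-0.14, adjusted p = 0.0621). Of the death receptor genes 2 rose and 2 fell, with CASP10 at -0.71 (adjusted p = 1.24e-06) and FAS at -0.51 (adjusted p = 0.00216). Among partners 5 rose and 2 fell, with FBXW7, which marks MCL1 for degradation, at -0.47 (adjusted p = 1.61e-06) and DYNLL2 at 0.42 (adjusted p = 1.97e-07). Among the regulators 3 rose and 4 fell, with TP73 at 0.45 (adjusted p = 0.000316) and E2F1 at 0.45 (adjusted p = 3.02e-08).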

How the data were processed

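The authors deposited whole-number counts of reads per gene for each library, laid out as STAR writes them: 1 unstranded column and 1 per strand. STAR, HTSeq, DESeq2 and GRCh38 are named, without versions, per the submitters' processing notes. The unstranded column was used because 50.1% to 50.7% of gene reads fell on 1 strand; 9.49% to 11.1% of reads met more than 1 gene and were not counted. The 2 lines were fitted apart in edgeR 4.0.16 under R 4.3.3 (quasi-likelihood, robust, TMM factors, filterByExpr), with 17684 LN-229 genes and 19376 DKO genes passing the filter. A call is an adjusted p below 0.05 by Benjamini-Hochberg over every gene tested in a comparison, and scripts were tested on simulated data. Alternatives were other scalings and filters, DESeq2 1.42.0, both stranded columns summed, only 2 groups in the fit, the other control set, and leaving out each library; for the further lists the last was added after seeing the data. Named genes were the 10 members, up to 2 called genes with the largest change per list in 2 comparisons, and the 5 genes most like BMF; some of these are not reported here. The members and lists were chosen with earlier results of these data known.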

Additional observations from a re-analysis of the deposited data

How the results depend on the processing

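Library depth limits BIK in LN-229, and unstranded counts limit BMF, BCL2L11, BAK1 and above all BCL2L1. The 2 control sets moved more values than any scaling: with siControl_2 as the control BMF was 1.51 higher with siZFX and 0.35 with siZNF593, PMAIP1 and BCL2L1 with siZFX turned to 0.26 and 0.24, and with siControl as the control BCL2L11 in the double knockdown turned to 0.17. With only the 2 control sets in the fit, 5 members in place of 2 and 3700 genes in place of 1824 were called between them; the cause was not tested. Upper-quartile scaling moved the split of calls, with siZNF593 from 2164 higher and 2577 lower to 2648 and 2138, and in the double knockdown from 3117 and 3636 to 3805 and 3134.

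Leaving out 1 library at a time gave log2 changes for BMF of 2.29 to 2.397 with siZFX, 1.08 to 1.25 with siZNF593, 0.65 to 0.85 in the double knockdown, 0.71 to 0.88 between the control sets, -0.26 to -0.05 with wtZFX, -0.19 to 0.021 with ZFX12_13 and 0.02 to 0.12 between the constructs. Members called were 5 with siZFX in each of the 6 fits, in place of 6, and 6 with siZNF593 in each. With siControl_2 as the control they were 4 and 5, where 6711 and 5410 of all genes were called. Over the fits that left out 1 library, members called ranged from 1 to 2 between the control sets, 3 to 5 in the double knockdown, 2 to 3 with wtZFX, 1 to 3 with ZFX12_13 and 4 to 7 between the constructs. All genes called also moved: 4377 to 4489 with siZFX (5464 with all libraries), 3564 to 4022 with siZNF593 (4741) and 1204 to 1367 between the control sets (1824). They ran from 5659 to 6987 in the double knockdown (6753), 6870 to 7292 with wtZFX (8202), 5816 to 7433 with ZFX12_13 (7086) and 3015 to 4540 between the constructs (3944). Member counts that use siZFX or siControl libraries take in BMF, and nothing is read from them. Small values changed sign: PMAIP1 ran from -0.11 to 0.018 with siZFX, -0.063 to 0.069 with ZFX12_13 and -0.086 to 0.047 between the constructs, BAK1 from -0.078 to 0.080 between the control sets and -0.059 to 0.069 with ZFX12_13, BAX from -0.33 to 0.041 and BCL2L1 from -0.37 to 0.058 in the double knockdown, BCL2L1 from -0.13 to 0.10 with wtZFX, and MCL1 from -0.022 to 0.061 between the constructs. PMAIP1 between the constructs was also -0.0042 with RLE factors and with DESeq2, -0.018 with no filter and -0.0015 with the replicate block. PMAIP1 with wtZFX was -0.0081 and BAK1 with ZFX12_13 -0.0022 with upper-quartile factors, and with both strands summed BAK1 with ZFX12_13 was -0.0081 and BCL2L1 with wtZFX 0.067.

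Libraries of 1 number did not deviate together (r of -0.0896 to 0.0583 over 21 pairs), and in 8 of 21 cases a library correlated best with its own number. These cases were uneven, with 3 of 3 for wtZFX and 2 of 3 for ZFX12_13 against pCMV6, and 0 or 1 of 3 in each other comparison. With the replicate block 6788 genes in place of 6753 were called in the double knockdown, where the BMF change was 0.72. With wtZFX it called 4 members in place of 5, and 8178 of all genes in place of 8202.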
